A study of Mus musculus with 20 samples.

Results

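In mouse embryonic stem (ES) cells 331 genes were low that were high in the embryoid bodies (EBs) made from wild type cells. In EBs made from cells depleted of p150, 16 of them had a mean of at least 0.6 times the wild type EB mean. These 16 genes were Amot, Camk2d, Clic6, Ctla2a, Ctsh, Cyp26a1, Dab2, Dkk1, Fgf8, Flt1, Hapln1, Kif1a, Mogat2, Nrk, Sox17 and Tmprss2. They were chosen by their measured values: under 2 FPKM (fragments counted relative to transcript length and to library size) in each of the 4 ES libraries, 10 FPKM or more in both wild type EB libraries, and a mean in the knockout EB libraries of at least 0.6 times the wild type EB mean. They are 4.83% of the 331 induced genes, and the table holds 53440 genes and loci with different names. The other 315 induced genes fell under the limit of 0.6. The EB levels, the knockout to wild type EB ratio and the difference between EBs and ES cells all went into the choice, so they are given as a description with no test.

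The series compared 4 groups of the mouse ES cell line TL1: EBs and ES cells in which p150 was depleted with CRISPR/Cas9 (knockout), and wild type EBs and ES cells. ES cells were kept with serum and LIF, the cytokine that holds mouse ES cells in the undifferentiated state, and EBs, aggregates in which ES cells differentiate, were cultured in the same medium lacking LIF. Each group had 2 RNA libraries and, for each of the histone marks H3K27me3 and H3K4me3, 1 chromatin immunoprecipitation (ChIP) library. No label states if a group's RNA libraries came from separate cultures or how many knockout clones were used, so p-values measure only the spread between these libraries.

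p150, the product of Chaf1a, is the large subunit of chromatin assembly factor 1 (CAF-1), which places newly made histones H3 and H4 on DNA behind the replication fork. H3K27me3 is the mark set by Polycomb repressive complex 2 on silent developmental genes, and H3K4me3 marks promoters in use or ready for use. In ES cells many developmental genes carry both marks, and on differentiation such genes either lose H3K27me3 and are transcribed or gain it and stay silent.

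The knockout EBs stood apart from wild type EBs in cell type markers. Pou5f1, the pluripotency factor Oct4, had 547 and 508 FPKM in knockout EBs, against 35.3 and 65.9 FPKM in wild type EBs. The summed level of the cardiomyocyte marker list was 49.4 and 380 FPKM in knockout EBs, against 5779 and 4649 FPKM in wild type EBs. That of the visceral endoderm list was 2134 and 2218 FPKM in knockout EBs, against 1387 and 1274 FPKM in wild type EBs. A large part of this sum was Apoe, with 1260 and 1368 FPKM in knockout EBs and 979 and 793 FPKM in wild type EBs. In ES cells Apoe was already at 555 to 691 FPKM. Afp, of the same list, went the other way, with 3.59 and 15.6 FPKM in knockout EBs, against 66.6 and 141 FPKM in wild type EBs. Of 27 genes of this list tested, limma called 8 higher and 6 lower in knockout EBs (adjusted p under 0.05). Chaf1a itself had 31.6 and 35.0 FPKM in knockout EBs, 31.7 and 32.1 FPKM in wild type EBs, 48.1 and 38.0 FPKM in knockout ES cells and 49.5 and 43.0 FPKM in wild type ES cells, so its RNA level did not show the depletion. A small CRISPR lesion need not lower the RNA, and the FPKM table holds no information on the protein. In bulk samples such as these, fewer cells of a type and less RNA per cell cannot be told apart.

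Promoter sequences are shown for 3 of the genes that averaged at least 1.4 times the wild type level in knockout EBs, since they range from CpG-rich to CpG-poor and all differed by 2-fold or more in H3K27me3 between wild type EBs and wild type ES cells. The sequences run from 250 bases before to 50 bases after the RefSeq start site (assembly GRCm38.p6), 5′ to 3′ on the strand of the gene, and capitals mark CpG dinucleotides.
Cyp26a1, chr19:37697558-37697857, plus strand: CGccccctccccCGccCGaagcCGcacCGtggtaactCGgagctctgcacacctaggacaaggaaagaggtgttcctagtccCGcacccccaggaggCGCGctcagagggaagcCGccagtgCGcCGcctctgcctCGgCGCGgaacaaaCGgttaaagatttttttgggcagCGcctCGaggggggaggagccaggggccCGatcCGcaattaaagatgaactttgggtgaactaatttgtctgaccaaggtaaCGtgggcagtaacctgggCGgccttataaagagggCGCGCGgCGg
Nrk, chrX:138914180-138914479, plus strand: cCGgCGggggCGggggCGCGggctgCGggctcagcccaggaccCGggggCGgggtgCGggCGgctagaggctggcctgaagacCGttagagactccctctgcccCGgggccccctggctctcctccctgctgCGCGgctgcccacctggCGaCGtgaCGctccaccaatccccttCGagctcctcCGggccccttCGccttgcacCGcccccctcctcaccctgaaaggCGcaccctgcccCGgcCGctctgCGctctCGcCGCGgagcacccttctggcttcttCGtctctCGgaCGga
Ctla2a, chr13:60936576-60936875, minus strand: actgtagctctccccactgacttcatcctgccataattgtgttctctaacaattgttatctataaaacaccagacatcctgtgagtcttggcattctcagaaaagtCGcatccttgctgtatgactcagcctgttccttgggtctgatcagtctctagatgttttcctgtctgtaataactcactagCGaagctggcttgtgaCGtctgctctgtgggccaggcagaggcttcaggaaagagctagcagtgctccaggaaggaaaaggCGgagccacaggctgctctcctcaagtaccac
The Cyp26a1 window held 26 CpG dinucleotides and that of Nrk 31, whereas Ctla2a had 4, in a range of 2 to 31 over the promoters matched.

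RefSeq start sites within 5000 bp of the 5′ end of the deposited locus were matched for 10 of the 16 genes, for 206 of the other 315 induced genes and for 14491 genes in all. The median CpG number in the 300-base window was 18.5 for the 10 genes, 17 for the other induced genes and 16 for all genes. The TATA box letters TATAAA, searched on both strands like every motif here, were found in 4 of the 10 promoters (40%), against 13.6% of the other induced genes and 12.4% of all genes. These 4 were Ctla2a, Cyp26a1, Dkk1 and Flt1, and, with the start site as position 0, the match began at -31 in Flt1, at -54 in Dkk1, at -190 in Ctla2a and at 29 in Cyp26a1. AGATAA or TGATAA, the letters that GATA factors bind, were in 2 of the 10 promoters (20%, Ctla2a and Dab2), against 12.6% of the other induced genes and 14.8% of all genes. The GC box CCGCCC was in 4 of the 10 promoters (40%), against 55.8% and 50.7% in those groups, and ACAAAG, which SOX and TCF factors bind, in 1 (10%), against 15.0% and 16.1%. TGTTTAC (FOXA factors), GTTAAT (HNF1) and GGTGTGA (T-box factors) were in none of the 10 windows and in 2.87%, 6.05% and 3.67% of all promoters. With 10 promoters these shares are a description. The TATAAA matches lay from -190 to 29, that in Cyp26a1 downstream of the annotated start, and whether any of them works as a TATA box was not tested.

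**Figure D1:**
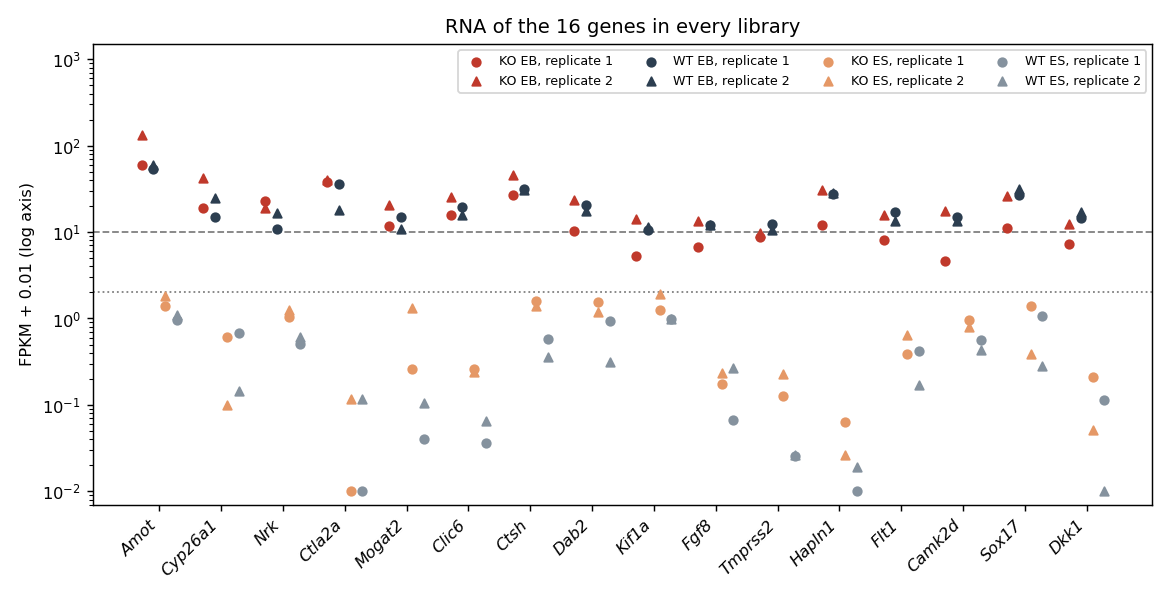
FPKM of the 16 genes in each of the 8 RNA libraries (log axis, 0.01 added), with circles for replicate 1 and triangles for replicate 2. The dotted line is the limit of 2 FPKM for ES libraries and the dashed line that of 10 FPKM for wild type EBs; knockout EB values of all 16 genes lie above the ES values, and replicate 2 of the knockout EBs lies above replicate 1 for every gene but Nrk.

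The plot of the 16 genes by library shows the jump between ES cells and EBs in both genotypes. The highest ES value of any of them was 1.90 FPKM, for Kif1a in a knockout ES library. Their mean in knockout EBs had a median over the 16 genes of 17.8 FPKM (range 9.34 to 97.2), against 16.8 FPKM (range 10.999 to 56.7) in wild type EBs. For all 16 genes both knockout EB libraries were above both knockout ES libraries, by at least the 2.78 times of Kif1a when the lower EB value was set against the higher ES value. The same order of libraries held in 284 of the other 315 induced genes (90.2%), so a rise in knockout EBs over knockout ES cells was common outside the 16 genes too, at a lower level: the other genes had a median knockout to wild type ratio of 0.180.

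Among the 16 genes the ratio of knockout to wild type EB means had a median of 0.882 and ran from 0.624 to 1.71. It was above 1 for 7 genes (Amot, Cyp26a1, Nrk, Ctla2a, Mogat2, Clic6 and Ctsh) and under 1 for 9. Just inside the limit were Dkk1 at 0.624 and Sox17 at 0.645. Just outside it were Pdlim3 at 0.595, Slc39a8 at 0.594 and Cxcr4 at 0.554. The limit cuts a continuous range, with 25 of the other genes between 0.4 and 0.6, while 214 of them (67.9%) were under 0.25.

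**Figure D2:**
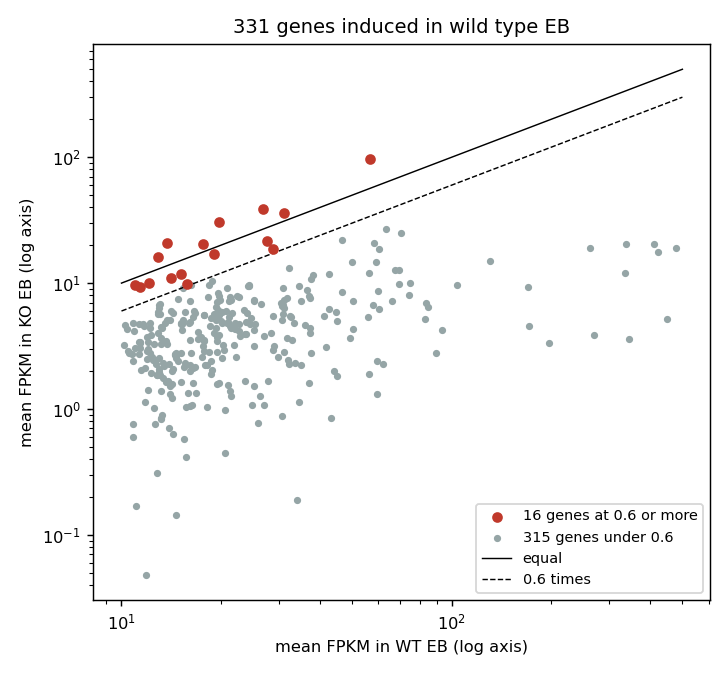
Mean FPKM in knockout EBs (vertical) against mean FPKM in wild type EBs (horizontal), both on log axes, for the 331 induced genes. The 16 genes at 0.6 or more (red) lie on both sides of the line of equality, and the 315 genes under 0.6 (grey) spread down to levels far under it.

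The first genes by role are the secreted signals and the transcription factor of the gastrulating embryo. Fgf8 (ENSMUSG00000025219.13, chr19:45736798-45742915) encodes the fibroblast growth factor of the primitive streak. It had 6.65 and 13.3 FPKM in knockout EBs, against 12.2 and 11.99 FPKM in wild type EBs, and 0.164 and 0.227 FPKM in knockout ES cells, against 0.0569 and 0.254 FPKM in wild type ES cells. The knockout and wild type EB libraries overlapped, with one knockout library near the wild type level and the other at 0.550 of its mean. Dkk1 (ENSMUSG00000024868.8, chr19:30545863-30549665) encodes a secreted Wnt antagonist of the anterior visceral endoderm. It had 7.28 and 12.4 FPKM in knockout EBs, against 14.5 and 17.1 FPKM in wild type EBs. Both knockout EB libraries were under both wild type libraries, and the ratio of means was 0.624. Sox17 (ENSMUSG00000025902.13, chr1:4490931-4497354), an endoderm transcription factor, had 11.2 and 26.1 FPKM in knockout EBs, against 26.6 and 31.1 FPKM in wild type EBs. Here too the groups did not overlap, and the knockout libraries differed from each other by more than the higher of them differed from wild type. In ES cells Sox17 had 1.40 and 0.374 FPKM in the knockout and 1.05 and 0.268 FPKM in the wild type, and Dkk1 had 0.200 and 0.0417 FPKM in the knockout and 0.105 and 0 FPKM in the wild type.

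Cyp26a1 (ENSMUSG00000024987.5, chr19:37697808-37701528) encodes the cytochrome P450 enzyme that degrades retinoic acid. It had 18.9 and 41.7 FPKM in knockout EBs, against 14.9 and 24.6 FPKM in wild type EBs, and the ratio of means was 1.53. The groups overlapped, since 1 knockout library lay between both wild type libraries. Its ES values were 0.605 and 0.0896 FPKM in the knockout and 0.661 and 0.134 FPKM in the wild type, with replicate 1 above replicate 2 in both genotypes.

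Of the receptor and the kinases, Nrk was the one with both knockout EB libraries above wild type. Nrk (ENSMUSG00000052854.15, chrX:138914430-139010532) encodes the X-linked Nik-related kinase. It had 22.8 and 19.1 FPKM in knockout EBs, against 10.95 and 16.5 FPKM in wild type EBs, with a ratio of 1.53 and no overlap. It was also higher in each knockout ES library, with 1.02 and 1.26 FPKM, than in wild type ES cells, with 0.498 and 0.603 FPKM. Flt1 (ENSMUSG00000029648.13, chr5:147561604-147726011), a receptor for vascular endothelial growth factor, had 8.10 and 15.5 FPKM in knockout EBs, against 17.0 and 13.3 FPKM in wild type EBs. The groups overlapped and the ratio was 0.780. Camk2d (ENSMUSG00000053819.16, chr3:126596302-126846326) encodes a calcium/calmodulin-dependent protein kinase subunit found in heart and other tissues. It had 4.59 and 17.4 FPKM in knockout EBs, against 15.0 and 13.3 FPKM in wild type EBs. No other gene of the 16 had knockout EB libraries so far apart, 3.80 times.

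Endocytosis and proteolysis were the roles of the next genes. Dab2 (ENSMUSG00000022150.16, chr15:6299788-6440712), an endocytic adaptor of the visceral endoderm, had 10.4 and 23.4 FPKM in knockout EBs, against 20.7 and 17.4 FPKM in wild type EBs, so that the wild type libraries lay between the knockout ones. Ctsh (ENSMUSG00000032359.14, chr9:90054152-90076089), the lysosomal protease cathepsin H, had 26.9 and 45.6 FPKM in knockout EBs, against 31.3 and 31.0 FPKM in wild type EBs. Both genes are also on the visceral endoderm marker list. Its summed level, of which Apoe was a large part, was higher in knockout EBs, while single genes of the list went both ways. What part the number of visceral endoderm cells has in the level of Dab2 and Ctsh was not tested. Tmprss2 (ENSMUSG00000000385.7, chr16:97564684-97611195), a transmembrane serine protease of epithelia, had 8.82 and 9.87 FPKM in knockout EBs, against 12.2 and 10.5 FPKM in wild type EBs. Both knockout libraries were under wild type, yet within 0.775 and 0.867 of its mean. Ctla2a (ENSMUSG00000044258.10, chr13:60934155-60936625) encodes an inhibitor of cysteine proteases. It had 37.5 and 40.4 FPKM in knockout EBs, against 35.6 and 18.1 FPKM in wild type EBs, and in ES cells it was listed at 0 and 0.106 FPKM in the knockout and at 0 and 0.107 FPKM in the wild type. Its log2 ratio of 0.54 rests on the lower wild type library: it was 0.13 without that library and 1.10 without the other. Ctla2a has a near-identical copy, Ctla2b, with 8.32 and 11 FPKM in knockout EBs and 6.25 and 3.59 FPKM in wild type EBs, and how reads were divided between the copies is uncertain.

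The remaining genes serve cell junctions, transport, lipid synthesis and the extracellular matrix. Amot (ENSMUSG00000041688.16, chrX:145446425-145505181), a junction scaffold of the Hippo pathway, had the highest level of the 16 genes, with 60.0 and 134 FPKM in knockout EBs, against 53.5 and 59.9 FPKM in wild type EBs. Its knockout libraries lay above wild type, one by little and the other at 2.37 times the wild type mean. Clic6 (ENSMUSG00000022949.9, chr16:92485736-92541243), of the chloride intracellular channel family, had 15.8 and 25.4 FPKM in knockout EBs, against 19.5 and 15.9 FPKM in wild type EBs. Mogat2 (ENSMUSG00000052396.7, chr7:99219084-99238619), a monoacylglycerol acyltransferase of fat absorption, had 11.7 and 20.4 FPKM in knockout EBs, against 15.0 and 10.9 FPKM in wild type EBs. The knockout and wild type libraries of Clic6 and Mogat2 overlapped. Kif1a (ENSMUSG00000014602.15, chr1:93015464-93101951), a kinesin motor of axonal transport, had 5.27 and 14.0 FPKM in knockout EBs, against 10.5 and 11.5 FPKM in wild type EBs. Hapln1 (ENSMUSG00000021613.9, chr13:89539796-89611652), which links hyaluronan to proteoglycans, had 12.2 and 31.0 FPKM in knockout EBs, against 27.2 and 28.0 FPKM in wild type EBs. In both, the wild type pair was close and the knockout pair spanned it.

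Counted over the 16 genes, knockout EB libraries lay above both wild type libraries in 3 (Amot, Nrk and Ctla2a), where 34.8% of the 15428 genes tested did so, and below both in 3 (Dkk1, Sox17 and Tmprss2), where 42.2% of all genes did so. The other 10 overlapped. All 315 other induced genes had both knockout libraries below wild type. The rule used these same values, and nothing is read from the counts. None of the 16 kept both knockout libraries above wild type once the libraries were rescaled to a common total, and the shares over all genes given here are for values before rescaling.

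**Figure D3:**
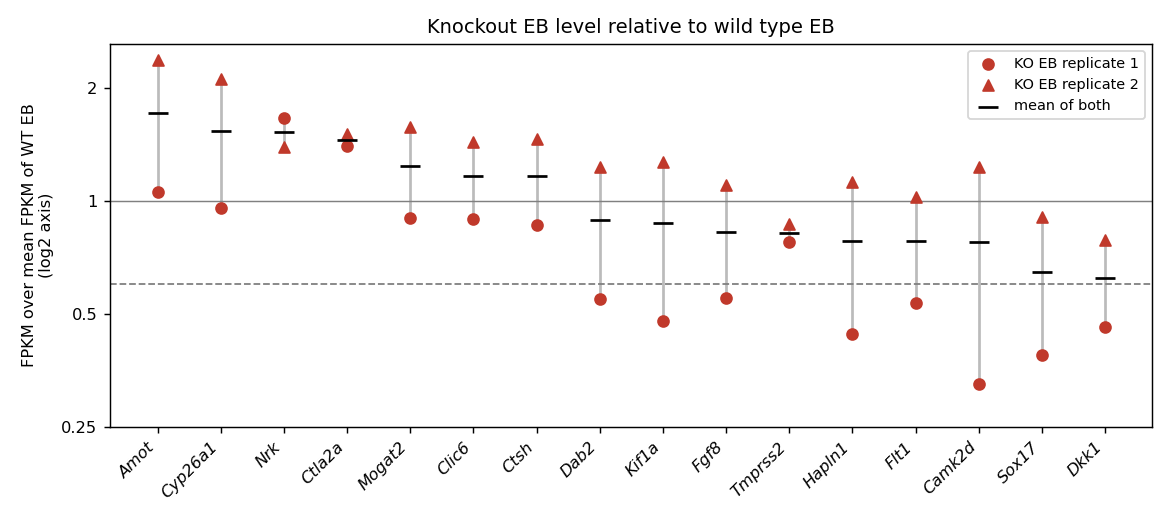
Level in each knockout EB library over the mean of the wild type EB libraries (log2 axis) for the 16 genes, with circles for replicate 1, triangles for replicate 2 and a bar for the mean of both. The dashed line is the limit of 0.6, which replicate 2 passed for all 16 genes and replicate 1 for 8.

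Membership rested strongly on 1 knockout EB library. Replicate 2 was above replicate 1 in 15 of the 16 genes, with a median of 1.96 times (range 0.839 to 3.80), while wild type replicate 2 over replicate 1 had a median of 0.986 (range 0.509 to 1.65). The other induced genes shared this difference: replicate 2 was higher in 304 of 315 (96.5%), with a median of 2.35 times. Over all genes tested the median was 1.01. Both knockout libraries reached 0.6 of the wild type mean for 8 genes (Amot, Clic6, Ctla2a, Ctsh, Cyp26a1, Mogat2, Nrk and Tmprss2). The other 8 (Camk2d, Dab2, Dkk1, Fgf8, Flt1, Hapln1, Kif1a and Sox17) reached it in replicate 2 and not in replicate 1. In replicate 2, 7 of the other induced genes also reached 0.6 (Cd34, Cxcr4, Msx1, Pdlim3, Sema6a, Slc39a8 and Ttr). The cardiomyocyte marker sum moved the same way, 49.4 FPKM in replicate 1 and 380 FPKM in replicate 2, and its part in the spread of the 16 genes was not tested.

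Summed FPKM was 15.5% higher in the knockout EB libraries than in the wild type ones, and rescaling all libraries to a common total shifted the median log2 difference of all genes between knockout and wild type EBs by -0.18. After rescaling, the ratio was 0.541 for Dkk1 and 0.562 for Sox17, both under the limit, and the highest ES value passed 2 FPKM for Amot, Ctsh, Dab2 and Kif1a. With the rule applied to rescaled values, 12 genes met it, 10 of them shared with the 16. The 7 genes with a ratio above 1 kept it after rescaling, Ctsh at 1.01 and Clic6 at 1.02. In knockout EB replicate 1 alone, 3 of the 16 (Amot, Nrk and Ctla2a) were above 1 on the values before rescaling. After rescaling, 5 genes had both knockout EB libraries below wild type (Dkk1, Fgf8, Flt1, Sox17 and Tmprss2), while the other 11 overlapped. Overlap was not counted over all genes on rescaled values, so nothing is read from these counts. The limma calls between knockout and wild type EBs, 3082 higher and 3992 lower of 15428 genes, became 2326 higher and 5391 lower of 16399.

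Of the 16 genes, 6 (37.5%) were on at least 1 of 17 lists of marker and developmental genes, against 64 of the other 315 induced genes (20.3%). The shares at 0.6 or more in single lists, each of few genes, stand beside the 4.83% of all induced genes. Among 3 induced primitive streak genes, Fgf8 was the one at 0.6 or more, while T, the mesoderm factor Brachyury, had a ratio of 0.392 and Frzb, a secreted Wnt inhibitor, 0.214. Of 6 induced endoderm transcription factors, Sox17 was the one at 0.6 or more; Foxa2 had 0.368, Gata4 0.307, Foxa1 0.190, Gata6 0.110 and Nr2f2 0.0642. Of 6 induced visceral endoderm genes, Ctsh and Dab2 were at 0.6 or more, against 0.472 for Ttr, 0.444 for Bmp2, 0.115 for Rbp4 and 0.0927 for Afp. Of 12 induced blood and endothelium genes, Flt1 was the one at 0.6 or more, and the median ratio of the 12 was 0.175. Cd34 had 0.440 and Cdh5 0.273, while the globin genes Hba-x and Hbb-y had 0.0116 and 0.0105. Of 13 induced signalling genes, Dkk1 and Fgf8 were at 0.6 or more, against 0.364 for Wnt11 and 0.0240 for Shh. None of the 11 induced mesoderm genes, 7 cardiomyocyte genes and 8 stroma genes reached 0.6.

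Over all genes tested between knockout and wild type EBs with limma (adjusted p under 0.05), 20.0% were higher and 25.9% lower in the knockout. On the same call, 5 of 17 streak genes were higher and 5 lower, 3 of 19 endoderm factors higher and 8 lower, 8 of 27 visceral endoderm genes higher and 6 lower, and 0 of 33 blood and endothelium genes higher and 25 lower. In the signalling list 10 of 66 were higher and 38 lower. The genes that the 16 share a list with thus differed in both directions between knockout and wild type EBs, except for the blood and endothelium list of Flt1, where every call was lower.

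The difference between knockout and wild type ES cells was not part of the rule, beyond the ceiling of 2 FPKM. The 16 genes were low in both, with a median over the genes of 0.645 FPKM in knockout ES cells and 0.341 FPKM in wild type ES cells. In 10 of the 16 both knockout ES libraries were above both wild type ES libraries, in none were they below, and 6 overlapped; 25.6% of the 15428 genes tested had both knockout libraries above. The other induced genes had the knockout above in 117 of 315 and below in 36. The fit across all genes called none of the 16 (limma, adjusted p under 0.05), where it called 77 genes, 0.499% of all. At an unadjusted p under 0.05 it held 1 of the 16, Ctsh, against 2105 genes in all (13.6%).

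Ctsh had 1.59 and 1.39 FPKM in knockout ES cells, against 0.572 and 0.350 FPKM in wild type ES cells. The groups did not overlap, and the log2 difference of knockout minus wild type, on values with 1 FPKM added, was 0.77 ± 0.25 (SE, limma adjusted p = 0.228). For Mogat2, with 0.253 and 1.31 FPKM in knockout ES cells, against 0.0299 and 0.0952 FPKM in wild type ES cells, it was 0.68 ± 0.36 (limma adjusted p = 0.478). For Nrk it was 0.46 ± 0.22 (limma adjusted p = 0.421). The fitted difference was positive for 14 of the 16 genes, where 53.7% of all genes were positive. The knockout ES mean was above the wild type ES mean in 14 of the 16 and in 219 of the other 315 induced genes (69.5%). The median fitted difference was 0.24 over the 16 and 0.022 over all genes. The added 1 FPKM makes these differences smaller than those between the FPKM values.

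**Figure D4:**
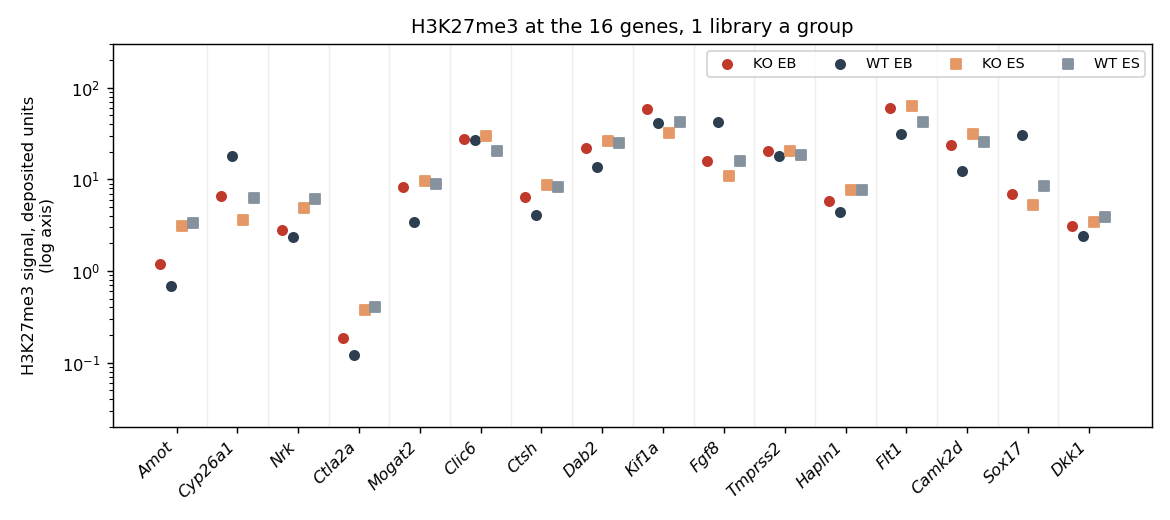
H3K27me3 ChIP signal at the 16 genes in the deposited units (log axis), 1 library a group, in the order knockout EB, wild type EB, knockout ES and wild type ES. Cyp26a1, Fgf8 and Sox17 are highest in wild type EBs. Of the 16 genes, 13 are higher in knockout than in wild type EBs, as are 231 of the 297 other induced genes (not shown).

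The rule did not use the ChIP values of the 16 genes. It chose the genes by RNA, though, and both marks are tied to transcription, so they are not separate from that choice. Each mark was measured in 1 library a group, which allows no test. The deposited tables are named as RPKM on promoters, but the window is not given and the values grew with the length of the locus (Spearman's rho across 17759 genes 0.666 for H3K27me3 in wild type ES cells), so genes are compared with themselves across libraries. The H3K27me3 values of wild type EBs were nearly all multiples of 0.04, and those of the other 7 ChIP libraries of 0.0267, and every H3K27me3 contrast with wild type EBs rests on the library with the other step. In wild type EBs, H3K27me3 was lower than in wild type ES cells by 2-fold or more in 6 of the 16 genes (Amot, Camk2d, Ctla2a, Ctsh, Mogat2 and Nrk; 5 without Ctla2a, which had 3 steps of 0.04 in wild type EBs), where 12.8% of the 20462 genes matched were, and higher by 2-fold or more in 3 (Cyp26a1, Fgf8 and Sox17), where 15.3% were. The median log2 ratio of wild type EB to wild type ES was -0.73 over the 16 genes, -0.53 over the 297 other induced genes in the ChIP tables and -0.035 over all genes. In knockout EBs against wild type EBs, H3K27me3 was above 1-fold in 13 of the 16. So it was in 231 of the 297 other induced genes and in 11844 of all 20462 genes. The median log2 ratio was 0.45 over the 16, against 0.50 in the other induced genes and 0.12 in all genes. With each library divided by its median over all genes, 4 of the 16 were lower by 2-fold in wild type EBs than in wild type ES cells, 3 were higher, and 11 were above 1-fold in knockout EBs against wild type EBs. On that scale no count was made over all genes, so nothing is read from these counts.

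Sox17, Fgf8 and Cyp26a1 showed the opposite pattern, with more H3K27me3 in wild type EBs than in any other library. Sox17 had a signal of 6.99 in knockout EBs, against 30.6 in wild type EBs, and 5.203 in knockout ES cells, against 8.56 in wild type ES cells. Fgf8 had 15.95 in knockout EBs, against 42.2 in wild type EBs, and 11.02 in knockout ES cells, against 15.7 in wild type ES cells. Cyp26a1 had 6.51 in knockout EBs, against 18.2 in wild type EBs, and 3.60 in knockout ES cells, against 6.24 in wild type ES cells. Their RNA was high in wild type EBs, the group in which this mark was highest. In knockout EBs their mean RNA passed the limit of 0.6, for Sox17 and Fgf8 through replicate 2 alone. The mark there was nearer to the ES values than to that of wild type EBs. The log2 ratio of knockout to wild type EB was -2.13 for Sox17, -1.40 for Fgf8 and -1.48 for Cyp26a1. With each library divided by its median it was -2.33, -1.60 and -1.68 for these genes. Of the 20462 genes, 9.58% were lower by 2-fold or more in knockout EBs and 9.45% higher, and of the 16 genes 1 was higher (Mogat2, log2 ratio 1.28).

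These 3 genes have short loci. A locus under 10 kb was found in 5 of the 16 genes (the others are Ctla2a and Dkk1), and 3 of these 5 had H3K27me3 both higher by 2-fold in wild type EBs than in wild type ES cells and lower by 2-fold in knockout EBs. The same held in 14 of 72 other induced genes with short loci (19.4%) and in 789 of 5804 short loci in all (13.6%). Without regard to length it was 3 of 16 (18.8%), 7.74% of the other induced genes and 6.80% of all genes. Dkk1, a short locus without the pattern, had 3.09 in knockout EBs, against 2.44 in wild type EBs, and 3.44 in knockout ES cells, against 3.92 in wild type ES cells. Ctla2a had 0.187 in knockout EBs, against 0.12 in wild type EBs.

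Among the long loci, Amot had an H3K27me3 signal of 1.201 in knockout EBs, against 0.680 in wild type EBs, and 3.07 in knockout ES cells, against 3.31 in wild type ES cells. Nrk, the other X-linked gene, had 2.83 in knockout EBs, against 2.36 in wild type EBs, and 4.88 in knockout ES cells, against 6.16 in wild type ES cells. Both lost signal between ES cells and EBs in each genotype. Flt1 had 59.5 in knockout EBs, against 31.3 in wild type EBs, and 62.5 in knockout ES cells, against 42.6 in wild type ES cells. Its mean RNA reached 0.780 of the wild type level in knockout EBs, the group in which this signal was close to that of knockout ES cells. Camk2d had 23.6 in knockout EBs, against 12.2 in wild type EBs, and 31.6 in knockout ES cells, against 25.3 in wild type ES cells.

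**Figure D5:**
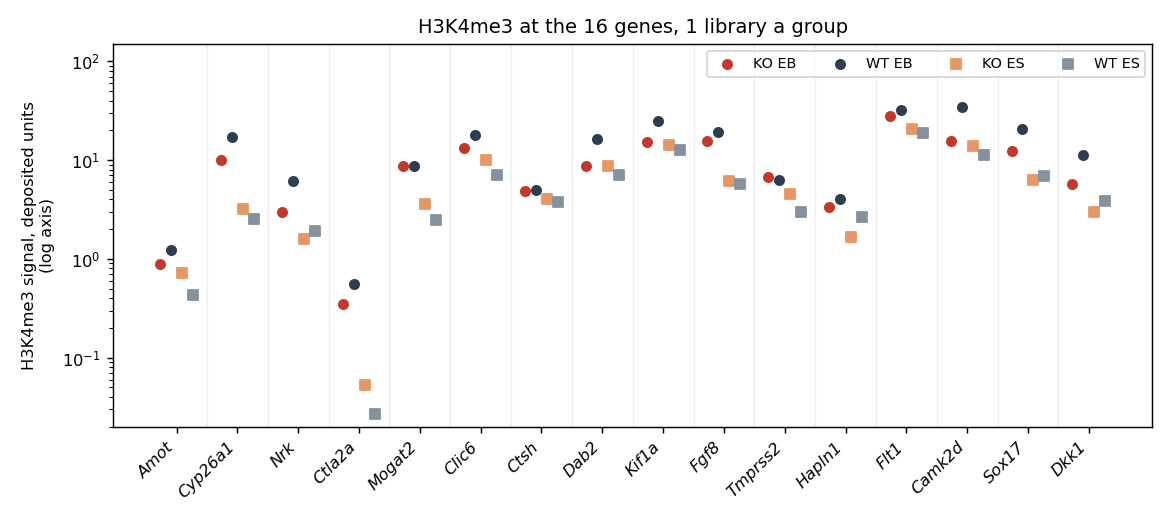
H3K4me3 ChIP signal at the 16 genes in the deposited units (log axis), 1 library a group, in the order knockout EB, wild type EB, knockout ES and wild type ES. Wild type EBs are above wild type ES cells in all 16 genes, and knockout EBs are below wild type EBs in 15. Of the 297 other induced genes (not shown), 279 and 276 had the same orders.

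H3K4me3 was higher in wild type EBs than in wild type ES cells in all 16 genes, by 2-fold or more in 12 (75%), or in 11 without Ctla2a, whose ES values are 2 steps of the table in the knockout and 1 in the wild type. The share at 2-fold or more was 74.1% in the other induced genes and 11.8% in all genes, and the median log2 ratio was 1.53, 1.51 and 0.031 in the 3 sets. By any amount the mark was higher in 279 of the 297 other induced genes and in 10451 of all 20462 genes. In knockout EBs the signal was below wild type EBs in 15 of the 16, Tmprss2 being the exception. It was also below in 276 of the 297 other induced genes and in 11232 of all 20462 genes. The median log2 ratio was -0.58 over the 16, against -0.97 in the other induced genes and -0.083 in all genes. The signal was lower by 2-fold or more in 2 of the 16 (12.5%, Camk2d and Nrk), against 47.5% of the other induced genes and 6.52% of all genes. Between knockout EBs and knockout ES cells it was higher by 2-fold or more in 5 of the 16 (31.2%, Ctla2a, Cyp26a1, Fgf8, Hapln1 and Mogat2, or 4 without Ctla2a), against 14.8% of the other induced genes and 3.38% of all genes. With each library divided by its median over all genes, Mogat2 and Ctsh were also above wild type in knockout EBs (log2 ratios 0.13 and 0.078). Nrk was then no longer lower by 2-fold (-0.91). The gain from wild type ES cells to EBs then fell under 2-fold for Dab2 (log2 ratio 0.92) and Tmprss2 (0.79).

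Cyp26a1 had an H3K4me3 signal of 10.0 in knockout EBs, against 17.2 in wild type EBs, and 3.20 in knockout ES cells, against 2.53 in wild type ES cells. Its log2 ratio of wild type EB to wild type ES, 2.76, was reached by 163 of the 20462 genes. Mogat2 had 8.70 in knockout EBs, against 8.72 in wild type EBs, and 3.60 in knockout ES cells, against 2.45 in wild type ES cells. It is a gene in which both genotypes gained the mark to nearly the same signal. Nrk had 3.01 in knockout EBs, against 6.19 in wild type EBs, and 1.60 in knockout ES cells, against 1.92 in wild type ES cells. Its RNA was higher and its H3K4me3 lower in knockout EBs than in wild type EBs. Camk2d had 15.6 in knockout EBs, against 34.6 in wild type EBs, and 13.8 in knockout ES cells, against 11.2 in wild type ES cells, so that its knockout signal stayed near that of ES cells. Sox17 had 12.5 in knockout EBs, against 20.8 in wild type EBs, and Fgf8 had 15.6 in knockout EBs, against 19.3 in wild type EBs. These genes had less of both marks in knockout EBs than in wild type EBs. Ctla2a had 0.347 in knockout EBs, against 0.560 in wild type EBs, and 0.0534 in knockout ES cells, against 0.0267 in wild type ES cells. With ES values this close to the smallest step, the size of its change is uncertain.

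In position, 2 of the 16 genes were X-linked (12.5%, Amot and Nrk), against 11 of the other 315 (3.49%). With only 2 genes, nothing is read from these shares. The median locus was 51.0 kb (range 2.47 to 250), and loci under 10 kb made up 31.2% of the 16 and 25.1% of the other induced genes. Fgf8, Cyp26a1 and Dkk1 all lie on chromosome 19, far apart from each other.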

How the data were processed

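RNA was given as FPKM values in a matrix the authors deposited, and ChIP as a signal per gene in their deposited tables, which are named as RPKM on promoters with no window or scaling given per the file headers. No counts were used, so the depth is unknown. Per the submitters' processing notes the genome build is mm10, and the tools named, with no role, are DESeq2, HTSeq, Cufflinks 2.2.1, STAR 2.6.0a and Bowtie2. Summed FPKM ran from 641692 to 781913 per library. For each gene name the locus with the highest mean was kept, and loci under 300 bp were left out. Genes with at least 1 FPKM in 2 libraries (15428) were tested on log2(FPKM + 1) with limma 3.58.1 in R 4.3.3 over all 8 libraries, with Benjamini-Hochberg adjustment. The fitting code was checked on simulated data, with changes in genes of 5 FPKM or more, above the level of the 16 genes in ES cells. ChIP ratios compared 1 library a group. Group membership followed the titles. The 4 ChIP inputs were not analysed here. The genes named are all 16, those nearest the limit, and the lists' induced genes. The members and lists were chosen with earlier results of these data known. Other pseudocounts, filters, scalings, limits and left-out replicates were tried.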

Additional observations from a re-analysis of the deposited data

Results flagged for a closer look

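Tmprss2 had both knockout libraries below wild type in EBs and above wild type in ES cells. In EBs it had 8.82 and 9.87 FPKM in the knockout, against 12.2 and 10.5 FPKM in the wild type, a log2 ratio of the means of -0.28. In ES cells it had 0.117 and 0.218 FPKM in the knockout, against 0.0157 and 0.0167 FPKM in the wild type. The difference between both effects was not tested. The EB values went into the choice of the gene, and the ES values lie near 0, with a log2 difference of 0.20 ± 0.17 (SE, limma adjusted p = 0.694). The same order of libraries in EBs and in ES cells held in 117 of the other 315 induced genes, all of which were below wild type in EBs. Opposite signs of the means were common too. All 9 of the 16 genes with an EB ratio under 1 had a higher knockout than wild type mean in ES cells. So did 219 of the other 315 induced genes (69.5%), all of which were under 0.6 in EBs.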

How the results depend on the processing

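The set of 16 genes depends on its limits and on 1 library. With wild type EBs at 5 FPKM or more it held 56 genes, at 20 or more 4, with ES values under 1 FPKM 9, and with each knockout EB library at 0.6 or more 8. Leaving out 1 replicate gave 8 (without knockout EB replicate 2) to 23 genes (without knockout EB replicate 1). Leaving out an ES replicate, leaving out Ctla2a and counting genes on median-divided ChIP values were added after the values were seen. The median log2 ratio of knockout to wild type EBs over the genes chosen, -0.18, is bounded by the rule's own limit and ran from -0.46 (rescaled) to 0.42 (each library at 0.6 or more); it also turned positive at a ratio limit of 0.8 (0.22) and without knockout EB replicate 1 (0.14). No alternative called any of the 16 genes between knockout and wild type ES cells; the log2 scale with 0.1 FPKM added gave 5 at an unadjusted p under 0.05, where 14.0% of all genes had one.

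For ChIP, the median log2 H3K27me3 ratio of knockout to wild type EBs (0.45) was 0.29 with 1 added, 0.25 with each library divided by its median, and -1.40 in the loci under 10 kb, where it reversed. That of wild type EBs to wild type ES cells (-0.73) was -0.47, -0.64 and 1.43 in the same order, reversed in short loci, and -1.19 in the 8 genes with both knockout libraries at 0.6 or more. That of knockout to wild type ES cells (-0.037) was -0.0027, -0.014, -0.51 and, in those 8 genes, -0.0061. For H3K4me3, knockout to wild type EBs (-0.58) gave -0.35, -0.45, -0.74 and -0.46, wild type EBs to ES cells (1.53) gave 1.18, 1.24, 1.74 and 1.60, and knockout to wild type ES cells (0.23) gave 0.14, 0.17, 0.090 and 0.54. Cyp26a1, Fgf8 and Sox17 make up 3 of the 5 short loci, which gives the reversals. The labels tie no replicate number to a batch. With a replicate block, added after seeing the data, 54 genes in place of 77 were called in ES cells and 0 of the 16; the correlation of replicate 2 minus replicate 1 between knockout and wild type ES cells was 0.311 over genes, and between the other pairs of groups 0.0678 to 0.127. FPKM without counts gives no counting error, and ChIP with 1 library a group gives no error.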
